A study of Mus musculus with 3 samples.

Results

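Lilrb4a, Lilr4b, Pirb and Lilra5 are mouse genes of the leukocyte and paired immunoglobulin-like receptor family, and their RNA was measured in the chromatin fraction of macrophages. They were chosen by gene symbol, with the levels in these libraries already known, and are 4 of the 55450 genes that had a value in both kinds of deposited table. The cells were macrophages grown from C57BL/6J bone marrow, and the labels list 1 condition. A first dose of 100 ng/ml lipid A lasted 12 h, a washout of 12 h followed, and a second dose of 100 ng/ml acted for 90 min. Toll-like receptor 4 recognises lipid A as a piece of bacterial lipopolysaccharide, and cells that never met it were not analysed here. Total RNA without most ribosomal RNA was sequenced in 3 libraries, numbered as biological replicates, which started from 1 µg of RNA in replicate 1, 250 ng in replicate 2 and 500 ng in replicate 3. The labels give each library a biosample of its own and all of them the same donor entry. Whether separate animals or cultures lie behind them is not stated, so the spread given here may be partly technical.

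These receptors sit on the surface of myeloid cells and carry immunoglobulin-like domains outside the cell. The inhibitory members hold immunoreceptor tyrosine-based inhibitory motifs (ITIMs) in their cytoplasmic tails, which recruit the phosphatases SHP-1 (Ptpn6), SHP-2 (Ptpn11) and SHIP-1 (Inpp5d) once phosphorylated. The activating members lack such motifs, and several signal through the adaptor chain Fcer1g and the kinase Syk. Lilrb4a encodes gp49B, an inhibitory receptor of mast cells and macrophages. Lilr4b encodes gp49A, its close neighbour that lacks the motifs. Pirb encodes an inhibitory receptor for major histocompatibility complex (MHC) class I molecules that also binds myelin proteins, and Lilra5 is counted among the activating members, mainly from work on its human counterpart. RNA in the chromatin fraction is enriched for transcripts still being made or not yet released, so unspliced RNA is measured beside spliced RNA.

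Each library has a gene table with its transcripts, built on transcriptome alignments, and a second transcript table built on the reads directly, called the reads table here. Levels are from the gene table unless the reads table is named. Total expected counts (estimates that can be fractional) were between 12671700 and 21747001 per library. All 9 macrophage markers examined, such as Adgre1 and Csf1r, had at least 1 TPM (a transcript abundance corrected for length and scaled to the library total) in each library. Of 32 markers of other blood and bone cells, 1 reached that level, the erythroid and heme synthesis gene Alas2 at 4.43 ± 1.02 TPM (SD, n = 3), and 16 were at 0. Of the 32, 7 reached it in the reads table, where the means were 9.91 TPM for Alas2, 5.89 for the osteoclast gene Ocstamp and 2.004 for the T cell gene Cd8a. Of all 21938 protein-coding genes, mitochondrially encoded genes apart, 41.2% reached that level in the gene table and 11480 in the reads table. The summed level of these 32 markers in the gene table was 9.30, 6.81 and 6.23 TPM in replicates 1, 2 and 3.

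Lilrb4a and Lilr4b lie next to each other on the plus strand of chromosome 10 (mm10), at chr10:51490956-51496611 and chr10:51480632-51486703, and their coding sequences differ little. Over 907 aligned coding bases of transcripts Lilrb4a-201 and Lilr4b-201, 96.0% were identical. Intron identity was between 95.2% for intron 1 and 97.5% for intron 2 over the 6 introns that annotated transcripts of both genes contain. The coding bases of exon 1 are shown because the genes cannot be told apart there, and no base is in capitals because none differs (chr10:51491018-51491051 and chr10:51480720-51480753, plus strand, 5′ to 3′, from the GENCODE M21 transcripts).
Lilrb4a exon 1: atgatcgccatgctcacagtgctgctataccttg
Lilr4b exon 1: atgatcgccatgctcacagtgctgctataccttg
Exon 8 is shown because the coding frames of the genes part there (chr10:51495994-51496059 and chr10:51485713-51485780), with capitals at the bases that differ or have no partner in the alignment.
Lilrb4a exon 8: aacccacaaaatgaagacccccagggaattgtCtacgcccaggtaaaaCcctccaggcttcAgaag
Lilr4b exon 8: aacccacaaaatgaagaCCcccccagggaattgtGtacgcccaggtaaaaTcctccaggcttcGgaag
Exon 8 has 66 bases in Lilrb4a and 68 in Lilr4b, and all 66 are coding in Lilrb4a while 45 are coding in Lilr4b, where a stop codon follows. The annotated coding sequence of Lilr4b is 32 codons shorter, with 303 against 335 codons. An ITIM was searched as isoleucine, leucine, valine or serine, any residue, tyrosine, any 2 residues, then isoleucine, leucine or valine, in the last 150 codons. Lilrb4a-201 held 2 matches and Lilr4b-201 held 0. The first match is in exon 8 (chr10:51496021-51496038) and the second in the coding part of exon 9 (chr10:51496167-51496241), with the motif codons in capitals in both lines.
Lilrb4a first motif: ATTGTCTACGCCCAGGTA
Lilrb4a exon 9: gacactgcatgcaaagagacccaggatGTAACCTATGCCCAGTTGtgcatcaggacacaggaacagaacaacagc
Pirb lies on the minus strand of chromosome 7 at chr7:3711409-3720391, and its annotated protein of 841 codons held 3 matches in the last 150 codons. Lilra5, at chr7:4237754-4243463 on the plus strand, held 0 matches in its 295 codons.

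In mean TPM, mitochondrially encoded genes apart, no other protein-coding gene was as high as Lilrb4a and Lilr4b. Lilrb4a had 5086, 2011 and 3153 TPM in replicates 1, 2 and 3, a mean of 3416 ± 1554 (SD, n = 3 for this and all later means). It ranked first of 21938 protein-coding genes in each library, and took 0.829%, 0.338% and 0.512% of the expected counts. Lilr4b had 3502, 1458 and 2150 TPM, a mean of 2370 ± 1039, and ranked 2, 4 and 2. For both genes replicate 1 was the highest library and replicate 2 the lowest. Tnfaip2, the next gene down, averaged 1907 ± 557 TPM, which is within 1 SD of Lilr4b. Within each library it was below Lilr4b, at 2425, 1319 and 1976 TPM. In the reads table the order of the means was reversed, with 2468 TPM for Tnfaip2 and 1847 for Lilr4b.

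Pirb had 565, 461 and 476 TPM, a mean of 501 ± 56.2, and ranked between 39 and 54. All 3 Pirb values lay below the lowest value of Lilr4b. Its neighbours in mean level were Sod2, the mitochondrial superoxide dismutase, with 508 ± 155 TPM above it, and Stat2, an interferon signalling factor, with 499 ± 94.8 TPM below it, and neither differed from Pirb beyond their spread. Lilra5 had 0 counts in all 3 libraries in both tables. For 0 counted a limit of 3 counts was used, which equals 0.145, 0.0827 and 0.107 TPM for Lilra5 in replicates 1, 2 and 3. This limit is a set value and not a hard maximum, and it covers counting error only. Against those limits Pirb was at least 3893-fold, 5577-fold and 4436-fold higher than Lilra5. Of all runs of 31 bases in the Lilra5 transcript, 100% occur in no other annotated gene, and the same holds for runs of 100 bases. These levels are a description of genes chosen for them, and in bulk RNA fewer cells with a transcript and less RNA per cell cannot be told apart.

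**Figure D1:**
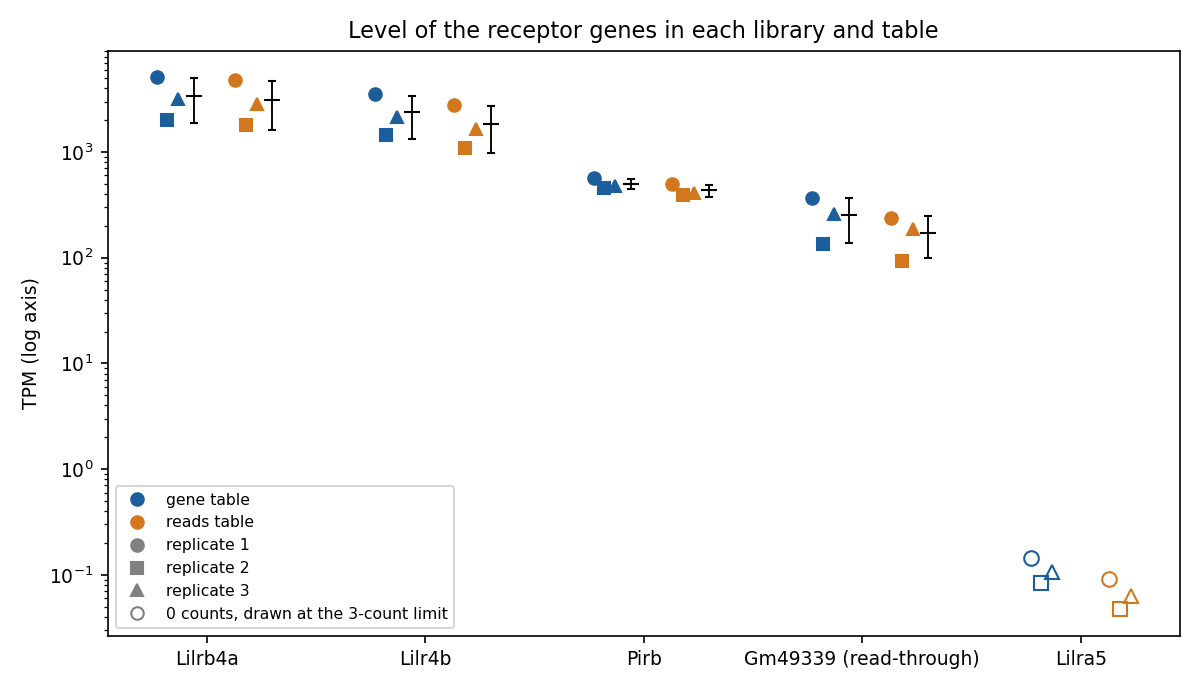
TPM on a log axis for each gene, with 1 point per library, the gene table in blue and the reads table in orange. The black bars give mean and SD of 3 libraries, and open points for Lilra5 mark the level that 3 counts would give, between 0.0474 and 0.145 TPM, since it had 0 counts. Replicate 1 is the highest library for Lilrb4a, Lilr4b, Pirb and Gm49339.

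Within a library, Lilrb4a exceeded Lilr4b by 0.54, 0.46 and 0.55 on the log2(TPM + 1) scale, a mean of 0.52 ± 0.05 or 1.43-fold. Lilrb4a took 58.9% ± 0.80 of the summed TPM of the pair. The difference was smaller in expected counts without length correction, at 0.18 ± 0.06, where the Lilrb4a share was 53.2% ± 0.95. Lilrb4a exceeded Pirb by 3.17, 2.12 and 2.73, a mean of 2.67 ± 0.53, so this difference varied between libraries far more than that between the neighbours on chromosome 10.

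Lilrb4a and Lilr4b moved together between libraries and Pirb varied less. The SD of log2(TPM + 1) was 0.67 for Lilrb4a and 0.63 for Lilr4b, larger than in 95.0% and 93.0% of the 200 protein-coding genes nearest in level, whose median SD was 0.29. Since Lilrb4a is the highest gene, all of its 200 lie below it, between 219 and 2370 TPM, and those of Lilr4b reach down to the same level. The SD of Pirb was 0.16, larger than in 20.5% of its 200 nearest genes. With TPM rescaled to the protein-coding genes of each library, Pirb had 1656 ± 33.0 and Lilrb4a 11009 ± 3791. The library with the highest Lilrb4a level, replicate 1, had the most starting RNA and the fewest expected counts, and the library with the lowest level, replicate 2, had the least starting RNA and the most counts. The part of starting RNA and depth in this spread was not tested.

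The genes whose profile over the 3 libraries was nearest to each receptor were taken from protein-coding genes averaging 10 TPM or more, by the root-mean-square distance of centred log2(TPM + 1). For Lilrb4a these were Slc43a3, a membrane transporter gene (distance 0.012), Lztfl1 (0.019) and Dock10, a guanine nucleotide exchange factor gene (0.020). For Lilr4b they were Tmod3, an actin-capping tropomodulin gene (0.0048), Kpna3, an importin gene (0.010), and 3110001I22Rik (0.013). For Pirb they were Zfx, a zinc finger transcription factor gene, Ewsr1, an RNA-binding protein gene, and Zcchc7, with distances between 0.0056 and 0.0058. With 3 libraries such a likeness only describes these samples, and 4771 genes were compared with each receptor.

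The locus on chromosome 10 also carries Gm49339, an annotated read-through gene at chr10:51480612-51496613 that spans Lilr4b and Lilrb4a. Its main transcript, with 326, 113 and 226 TPM, joins exon 1 of Lilr4b to exons 2 to 9 of Lilrb4a, and its 1005 coding bases are 100% identical to those of Lilrb4a-201. Of the runs of 31 bases in Lilrb4a-201, 100% also occur in Gm49339, and 41.2% also occur in Lilr4b. With runs of 100 bases these shares were 100% and 14.3%. Gm49339 had 366, 135 and 262 TPM, a mean of 254 ± 116. Of all runs of 31 bases over the transcripts of Lilrb4a, 44.3% occurred in that gene only, against 62.8% for Lilr4b and 56.2% for Pirb. For runs of 100 bases the values were 65.3%, 91.2% and 79.3%. Counts in all 3 genes therefore depend in part on how reads from shared sequence were divided.

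Almost none of the Lilrb4a signal was placed on its own coding transcripts. The transcripts annotated as protein-coding had 1.32, 0 and 0.40 TPM, a mean of 0.573 ± 0.677, or 0.013% ± 0.013 of the gene, and Lilrb4a ranked 9636 by this measure. The retained-intron transcripts, which the annotation marks as containing intron sequence and as non-coding, held 99.6% ± 0.41 of Lilrb4a. The coding transcripts of Gm49339, whose main transcript carries the same coding bases, had 348, 129 and 248 TPM, a mean of 242 ± 110. Counted jointly, the coding transcripts of Lilrb4a and Gm49339 had 242 ± 110 TPM, or 6.56% ± 0.64 of the sum of the 2 genes.

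Lilr4b also had most of its signal outside coding transcripts, but on more kinds of transcript. Its retained-intron transcripts held 73.5% ± 2.84, its transcripts marked for nonsense-mediated decay, a pathway that degrades messages with an early stop, held 23.5% ± 2.46, and its coding transcripts held 2.25% ± 0.57, or 52.6 ± 21.4 TPM. Pirb had 14.3% ± 1.92 on its coding transcript Pirb-201, with 92.8, 58.5 and 65.7 TPM, and 85.7% ± 1.92 on retained-intron transcripts. Over the 9029 protein-coding genes with at least 1 TPM in each library, the median share on coding transcripts was 52.5% and the median share on retained-intron transcripts was 30.2%. The coding share, taken from mean TPM, was lower than that of Lilrb4a in 0.41% of those genes, lower than that of Lilr4b in 0.831% and lower than that of Pirb in 6.39%. For Lilrb4a this place depends on how sequence shared with Gm49339 was divided, and the joint share of 6.56% was not ranked.

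**Figure D2:**
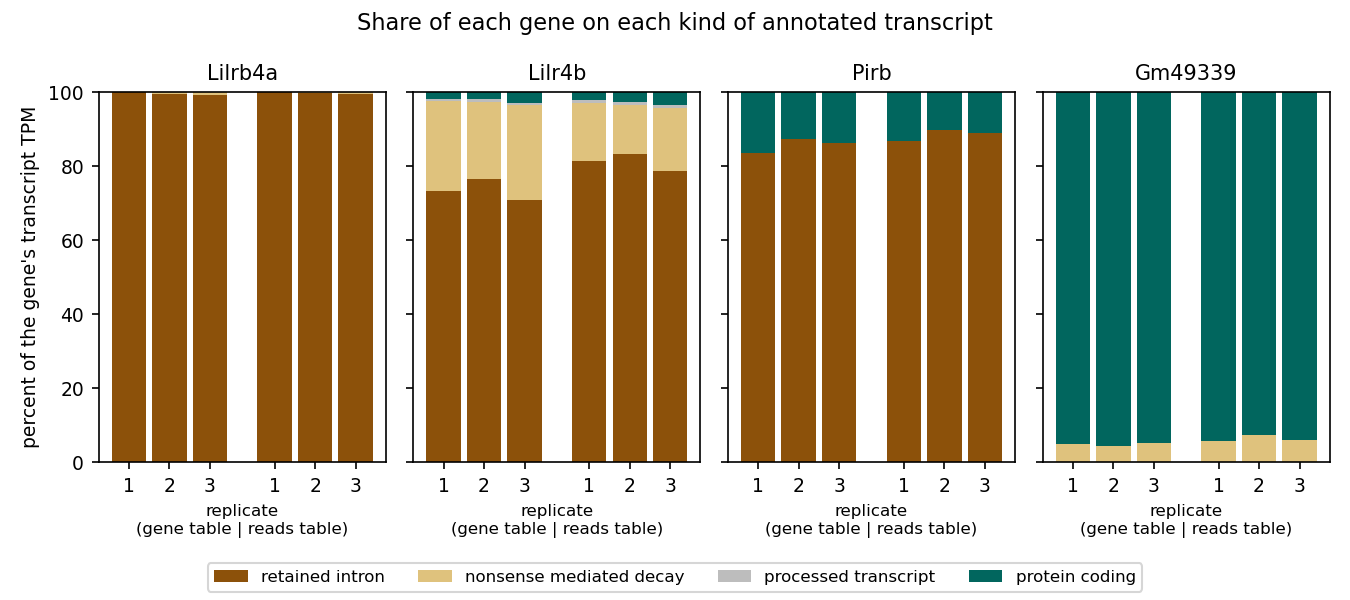
Percent of each gene's transcript TPM on each annotated kind of transcript, as stacked bars for each library, with the gene table's transcripts on the left and the reads table on the right of each panel. Retained-intron transcripts fill nearly the whole bar for Lilrb4a, and coding transcripts fill over 90% for Gm49339 in both tables.

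The leading Lilrb4a transcripts describe separate pieces of the gene. Lilrb4a-206, with 2018, 799 and 1279 TPM, held 39.7%, 39.8% and 40.6% of the gene and consists of 2 exons at its 3′ end. Lilrb4a-209, with 1616, 605 and 926 TPM, held 30.4% ± 1.23 and covers the 5′ part. These 2 transcripts share 0 bases, lie 992 bases apart, and held 70.4% ± 0.91 of the gene's TPM. The first exon of Lilrb4a-206 starts inside intron 7, contains its last 778 bases and runs on into exon 8. The end of intron 7 is shown, with exon 8 in capitals, because the transcript with the highest level reads across it (chr10:51495934-51496013).
Lilrb4a intron 7 end: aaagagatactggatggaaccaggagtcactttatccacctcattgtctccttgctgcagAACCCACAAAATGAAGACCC

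A gene TPM sums such pieces, so it can exceed the level at any position. When TPM was instead summed only over transcripts whose exons cover the same position, the highest value for Lilrb4a was 3240, 1256 and 2059, a mean of 2185 ± 998, at 63.9% of its gene TPM. For Lilr4b it was 3333, 1406 and 2051, a mean of 2263 ± 981, at 95.5%. By this measure Lilrb4a was the lower of the neighbours in 2 of 3 libraries, with a log2 difference of -0.066 ± 0.087 (SD) in place of 0.52, and the genes ranked second and first of the 9029. For Pirb the highest value equalled its gene TPM, at 501 ± 56.2. The measure was added after the transcript structures were seen.

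**Figure D3:**
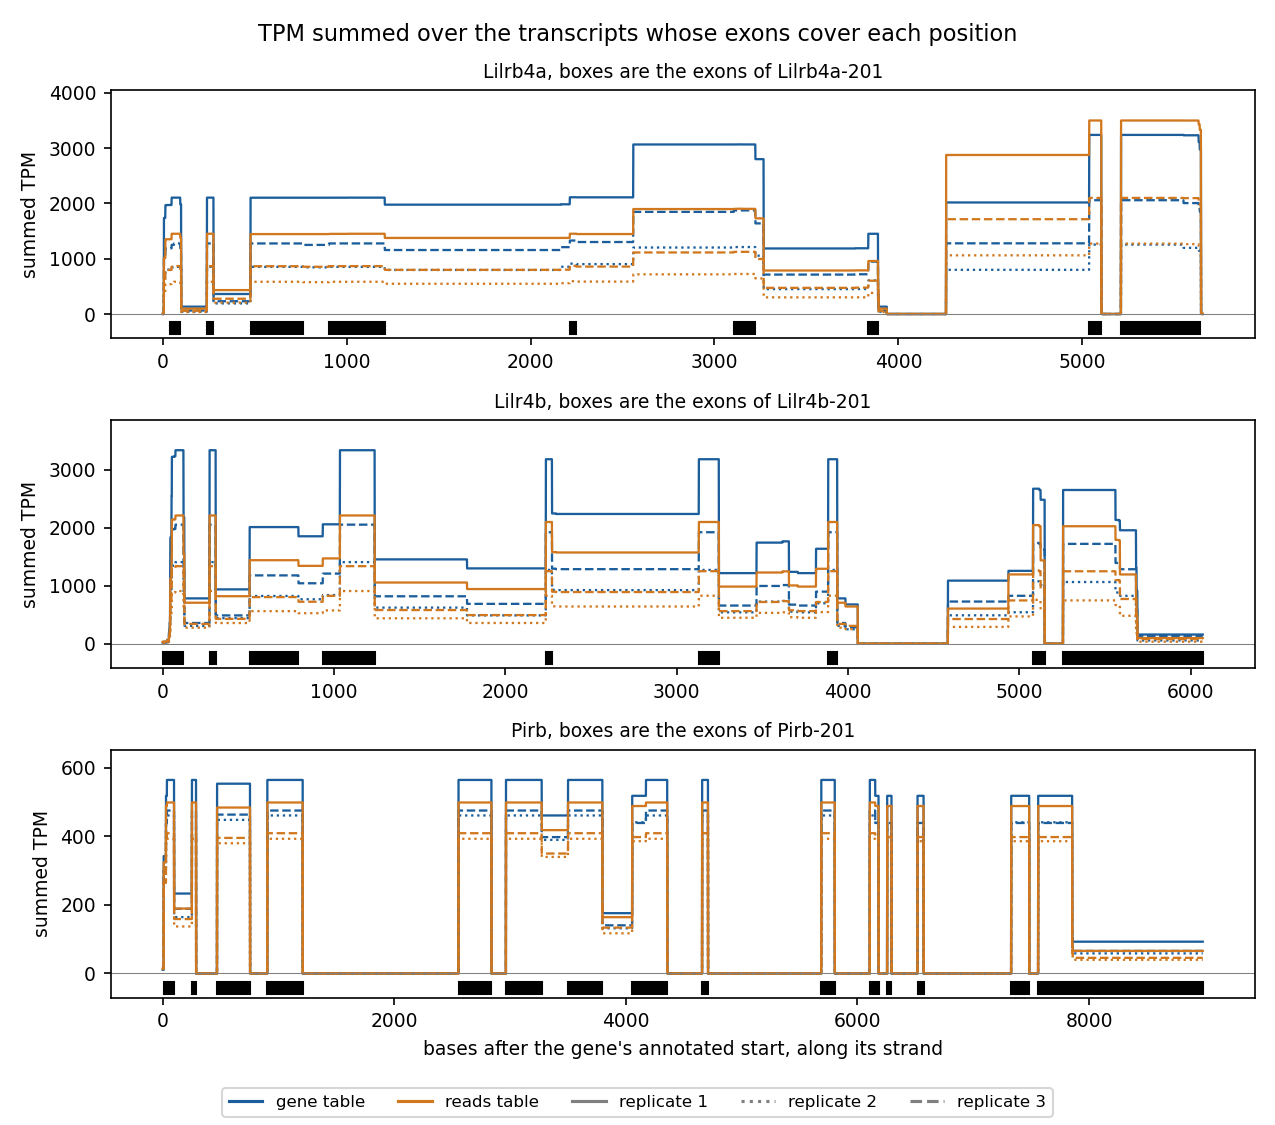
Summed TPM of the transcripts whose exons cover each position, against the distance in bases from the annotated start of the gene along its strand, for Lilrb4a, Lilr4b and Pirb. Blue lines are the gene table's transcripts and orange lines the reads table, line styles are the 3 libraries, and black boxes are the exons of the first-numbered coding transcript. In Lilrb4a the level is 0 over part of intron 7, where no annotated transcript has an exon. It is then that of Lilrb4a-206, between 799 and 2018 TPM in the gene table, up to exon 8, where it is higher. The level over most introns of Pirb is 0 for the same reason, since no annotated transcript covers them.

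Retention was then compared intron by intron, as the percent of TPM on transcripts that contain an intron among those that contain it or splice it exactly. In Lilrb4a, 6 of 8 introns are contained in some annotated transcript. Intron 3 was retained at 99.0% ± 1.03, intron 5 at 99.0% ± 1.00, intron 4 at 92.7% ± 1.77 and intron 6 at 77.3% ± 3.995, while intron 1 was at 47.1% ± 4.91 and intron 2 at 19.3% ± 2.83. In the reads table intron 2 was higher, at 32.4% ± 2.66, and intron 1 was at 55.02% ± 2.39. The intron 1 values leave out transcripts that splice from a site slightly further on, and these held most of the TPM. In replicate 1, 133 TPM covered intron 1 beyond that site, against 2105 TPM over exon 2. The intron 1 percent therefore overstates retention and cannot be ranked against intron 2. In Lilr4b, also with 6 of 8, intron 3 was the most retained at 91.2% ± 2.46, whereas intron 4 was at 38.3% ± 2.54 and intron 5 at 70.2% ± 2.88. Its introns 1, 2 and 6 were at 36.3% ± 4.68, 47.2% ± 6.11 and 53.8% ± 4.63, against 46.4%, 57.9% and 64.3% in the reads table. Intron 1 of Lilr4b has the same limit, with 781 TPM beyond the later site against 3333 TPM over exon 2 in replicate 1. No annotated transcript contains the whole of intron 7 or 8 in either gene, so this measure has no value there, although Lilrb4a-206 contains 778 of the 1148 bases of Lilrb4a intron 7. With the transcripts of Gm49339 counted as spliced Lilrb4a, an alternative chosen after seeing the data, intron 3 of Lilrb4a was at 84.0% ± 2.35, intron 4 at 78.7% ± 2.97 and intron 6 at 62.9% ± 2.99.

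Intron 3 of both genes is shown with 20 exon bases on each side in capitals, because it was the intron of highest or nearly highest retention in each (chr10:51491699-51491880 and chr10:51481405-51481586).
Lilrb4a intron 3: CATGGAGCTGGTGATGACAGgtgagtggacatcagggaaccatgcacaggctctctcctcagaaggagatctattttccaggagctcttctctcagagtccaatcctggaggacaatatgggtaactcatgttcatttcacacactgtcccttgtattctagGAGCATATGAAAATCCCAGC
Lilr4b intron 3: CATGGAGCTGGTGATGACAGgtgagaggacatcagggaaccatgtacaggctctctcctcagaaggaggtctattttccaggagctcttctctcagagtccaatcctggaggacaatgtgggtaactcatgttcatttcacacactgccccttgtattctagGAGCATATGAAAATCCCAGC
Both introns have 142 bases and were 96.5% identical, and the flanking exon bases shown are the same.

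In Pirb, 3 of 14 introns are contained in an annotated transcript. Intron 6 was retained at 83.3% ± 1.49, with 81.6%, 84.5% and 83.7% in replicates 1, 2 and 3, against 38.9% ± 2.89 for intron 1 and 31.9% ± 2.03 for intron 7. The leading transcript Pirb-202, which held 46.8% ± 4.68 of the gene, contains intron 6 and splices all others. Intron 6 is shown with 20 exon bases on each side in capitals (chr7:3716871-3717137, minus strand).
Pirb intron 6: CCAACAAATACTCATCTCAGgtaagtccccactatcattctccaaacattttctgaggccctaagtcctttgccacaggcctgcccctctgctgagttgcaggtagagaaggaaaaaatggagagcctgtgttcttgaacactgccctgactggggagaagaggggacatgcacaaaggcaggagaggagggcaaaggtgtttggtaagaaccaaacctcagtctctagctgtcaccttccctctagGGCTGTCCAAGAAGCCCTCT
All introns that could be read from a transcript, 6 in each chromosome 10 gene and 3 in Pirb, start with GT and end with AG.

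**Figure D4:**
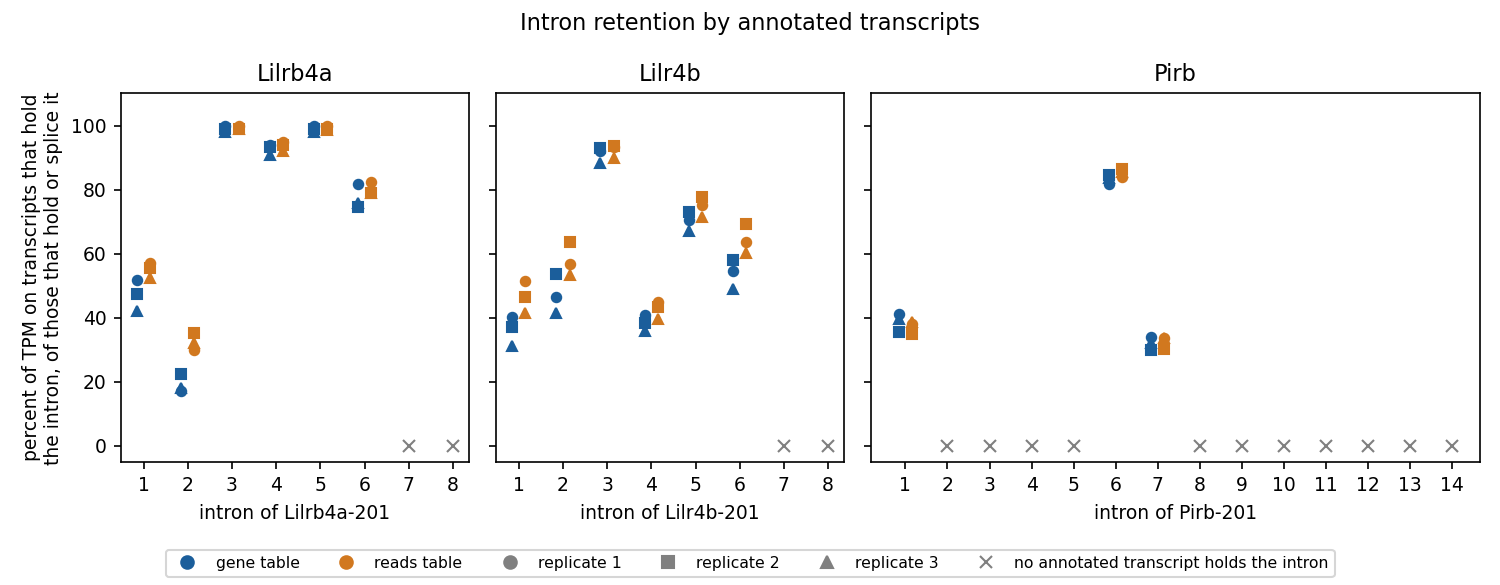
Percent of TPM on transcripts that contain each intron, of those that contain it or splice it exactly, against the intron number in the first-numbered coding transcript of Lilrb4a, Lilr4b and Pirb. For intron 1 of Lilrb4a and Lilr4b this leaves out transcripts that splice from a slightly later site. Points are libraries, blue for the gene table's transcripts and orange for the reads table, and crosses mark introns that no annotated transcript contains whole. In Pirb the points for intron 6 lie above those for introns 1 and 7 in every library.

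Over all introns of coding transcripts, the retained percent of a gene was 62.2% for Lilrb4a, 46.8% for Lilr4b and 11.2% for Pirb, larger than in 99.3%, 98.6% and 84.98% of the 8866 genes with a value, whose median was 0. Some annotated transcript contains 10 of these 12 introns in Lilrb4a, 7 of 9 in Lilr4b and 3 of 14 in Pirb. The remaining introns could only count as spliced in this percent, which lowers it, and the same holds for the other genes. Transcripts that splice an intron from another site count on neither side. The annotation itself differs in what it can count. Exons of any transcript cover 92.4% of the Lilrb4a span, 89.6% of Lilr4b and 49.8% of Pirb, against a median of 19.9% over the 9029 genes and 25.4% over the 50 genes with the highest TPM. Lilrb4a has 14 annotated transcripts and Lilr4b 13, against a median of 6. The part of the annotation in the retained share or in the gene level was not tested.

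The gene table was set against the gene sums of the reads table with limma on the difference of log2(TPM + 1) within each library. Of 19319 genes tested, 1625 or 8.41% were higher in the gene table and 12508 or 64.7% were lower at an adjusted p under 0.05, 73.2% in all, and the median difference was -0.67. With TPM rescaled to the protein-coding genes of each library, 4410 were higher and 9477 lower. Without replicate 2 the number higher was 838, and without replicate 3 it was 635. The 3 receptors that passed the filter on low values were all higher in the gene table, and Lilra5 was left out at 0. Since the receptors were chosen partly for their level in the gene table, the direction and the adjusted p values below are a description. Both tables come from the same libraries, so the spread tested is that of quantification between libraries, not of the cells. Lilr4b had 3502, 1458 and 2150 TPM in the gene table and 2797, 1088 and 1656 in the reads table, a log2 difference of 0.37 ± 0.04 (SE, limma adjusted p = 0.0027). Pirb had 565, 461 and 476 TPM in the gene table and 499, 393 and 410 in the reads table, a difference of 0.21 ± 0.03 (SE, adjusted p = 0.0062). For Lilrb4a the values were 5086, 2011 and 3153 against 4781, 1786 and 2840 TPM, a difference of 0.14 ± 0.04 (SE, adjusted p = 0.044). All 3 genes were higher in the gene table in each library. Relative to the median gene, the differences were 0.81 for Lilrb4a, 1.04 for Lilr4b and 0.88 for Pirb. Among genes averaging at least 10 TPM the median was -0.46. Relative to it the differences were smaller, at 0.60, 0.83 and 0.67. At this threshold the Lilrb4a call was lost with a mean of at least 10 TPM (adjusted p = 0.089), with no filter (0.54), without replicate 2 (0.24) and without replicate 3 (0.38). The Lilr4b call was lost with no filter (0.053) and without replicate 3 (0.062), and the Pirb call without replicate 3 (0.082).

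The tables put the receptors in much the same order but divided their transcripts differently. In the reads table Lilrb4a ranked 1, 2 and 1, Lilr4b 3, 9 and 4, and Pirb 96, 69 and 79 among protein-coding genes. The Lilrb4a excess over Lilr4b was larger there, at 0.76 ± 0.04 on the log2 scale, with 62.8% ± 0.57 of the pair's TPM on Lilrb4a. Lilrb4a-206 held 59.99% ± 0.50 in place of 39.995% ± 0.49, and Lilrb4a-209 held 19.1% ± 0.67 in place of 30.4% ± 1.23. The leading Lilr4b transcript was the decay-marked Lilr4b-204 in the gene table's transcripts, with 19.6% ± 1.56, and the unspliced 1-exon Lilr4b-206 in the reads table, with 21.5% ± 2.56. For Lilr4b-210, a short retained-intron transcript of 520 bases, the share was 4.34% ± 0.65 against 18.98% ± 2.25 in the reads table. Pirb-202 led in both, with 46.8% ± 4.68 and 51.3% ± 3.23. The highest summed TPM at any position was 2185 ± 998 for Lilrb4a and 2263 ± 981 for Lilr4b in the gene table's transcripts, but 2291 ± 1126 and 1484 ± 663 in the reads table.

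The deposited gene table also gives bounds for each TPM, without stating their level. The TPM of Lilrb4a, Lilr4b and Pirb lay above the upper bound in all 3 libraries, for example 5086 TPM against bounds of 4575 and 4664 for Lilrb4a in replicate 1. Of the 9029 genes, 13.9%, 8.41% and 11.8% lay above theirs in replicates 1, 2 and 3. The table's posterior mean TPM was 3138 ± 1380 for Lilrb4a, 2176 ± 919 for Lilr4b and 462 ± 44.6 for Pirb, which keeps their order.

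The other family genes lie with Pirb and Lilra5 on chromosome 7, and all were far below Pirb. Pira2, which encodes an activating receptor that pairs with Fcer1g, had 20.7, 10.6 and 16.9 TPM, a mean of 16.1 ± 5.08. Lilra6 had 4.71, 1.37 and 3.10 TPM, a mean of 3.06 ± 1.67. Gm15922, which RefSeq (GRCm38.p6) lists as Pira1 at the same span, had 27.4 ± 6.68 TPM; it falls outside the naming rule and was chosen after its values were seen. Pirb coding bases were 94.5% identical to those of Pira2 and 93.5% identical to those of Lilra6 over the aligned stretch. Of the runs of 31 bases in Pirb transcripts, 35.7% also occur in Pira2, Lilra6, Gm15922, Gm14548 or Gm15448, and with 100 bases 18.8%, so the low levels of the Pira genes are uncertain. The lowest Pirb value, 461 TPM, lay above the highest Pira2 value, 20.7 TPM.

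The partners of the inhibitory motif were all detected. Of the 7 listed effectors, 7 had at least 1 TPM in each library, against 9029 of 21938 or 41.2% of all protein-coding genes, and their median was 44.2 TPM. SHP-1 (Ptpn6) was highest at 101 ± 12.8 TPM, followed by SHIP-1 (Inpp5d) at 57.1 ± 35.5 and the kinase Csk, which restrains Src-family kinases, at 55.8 ± 8.29, and SHP-2 (Ptpn11) was lowest at 8.32 ± 0.901. The adaptors and kinases of activating receptors were detected in 7 of 9, against the same 41.2%. They were led by the kinases Syk at 865 ± 178 TPM and Lyn at 200 ± 50.9, and by Fcer1g at 163 ± 12.8. The Src-family kinase Fgr was lowest at 0.477 ± 0.0611. Pirb was lower than Syk in all 3 libraries.

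Of 11 known or reported ligand genes, 8 were detected, and 10 in the reads table. Of all protein-coding genes 41.2% were detected, and 11480 of 21938 in the reads table. The MHC class I heavy chains H2-K1, at 1853 ± 91.4 TPM, and H2-D1, at 660 ± 36.4, were highest. Itgav, a subunit of the integrin that binds gp49B, had 118 ± 52.1 TPM, whereas its partner Itgb3 had 0.190 ± 0.0557 and fibronectin (Fn1) was lowest at 0.163 ± 0.133. Mag, a myelin protein, had 0.773 ± 0.170 TPM in the gene table but 16.0 TPM on average in the reads table, and both Mag and Itgb3 fall outside the naming rule.

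Among 12 other inhibitory receptors 11 were detected (12 in the reads table), with a median of 15.3 TPM. For all protein-coding genes the share was 41.2% (11480 of 21938 in the reads table). Sirpa, the receptor for CD47, at 922 ± 149, and the Fc receptor Fcgr2b, at 549 ± 214, were the highest. Clec12a, a C-type lectin receptor, followed at 84.1 ± 22.1, and Ceacam1 was lowest at 0.863 ± 0.432. Both Lilrb4a and Lilr4b exceeded Sirpa in every library. Among 13 activating receptors 11 were detected, beside the same 41.2%, and their median was 9.19 TPM. Clec4e (Mincle) at 681 ± 199, Clec4d at 105.3 ± 34.9 and the Fc receptor Fcgr1 at 15.01 ± 5.68 were highest, and Trem3 was at 0. Of the 5 other receptors on chromosome 7, 2 were detected, the collagen receptor Lair1 at 33.9 ± 14.5 TPM and Tarm1 at 4.44 ± 1.94, while Gp6 had 0.0433 ± 0.0493 and Ncr1, of natural killer cells, was at 0. That share of 40% was close to the 41.2% of all protein-coding genes. Between Pirb and Lilra5 on the chromosome lies Leng8, which had 221 TPM on average and was named after its value was seen.

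**Figure D5:**
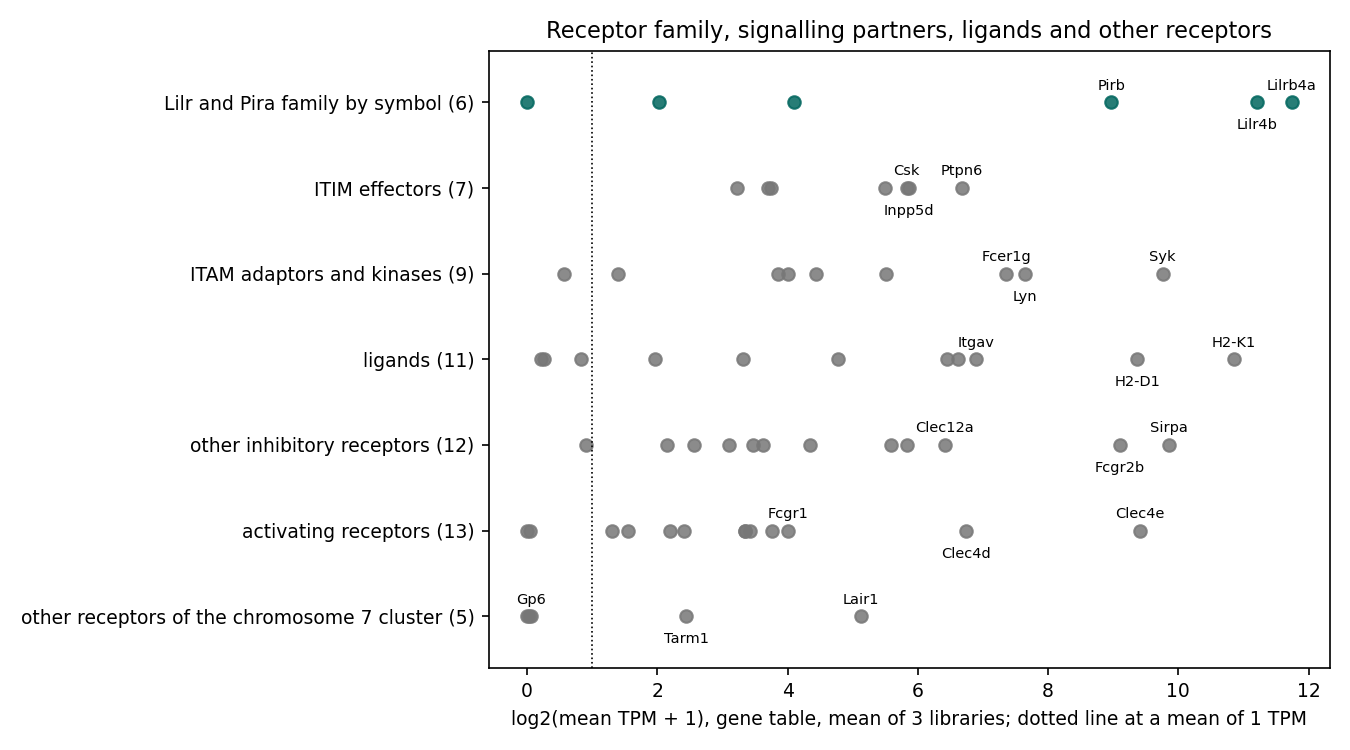
Log2(mean TPM + 1) of every gene in each list, from the gene table as the mean of 3 libraries, with the number of genes in brackets and the 3 highest genes of each list named. Green points are the Lilr and Pira genes, grey points the other lists, and the dotted line marks a mean of 1 TPM. Lilrb4a and Lilr4b lie to the right of every gene of the other lists, and Lilra5 lies at 0.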

How the data were processed

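Chromatin-fraction total RNA was measured in 3 libraries of 1 condition. The expected counts in the deposited tables are the authors' estimated counts per gene or transcript, not scaled between libraries. The deposited TPM values were corrected for length and scaled to the total of all features in a table by the authors. The bounds and within-library spreads in the tables are the authors' own and were read as a score, since no interval level is given. The percent of a gene on each transcript was computed from TPM and checked against the deposited percent column, from which it differed by at most 0.0051 percentage points. Per the text listing deposited with each sample, the build was mm10 with GENCODE M21. For aligner, quantifiers and use of strand, nothing is given in the sources used here, and reads of a gene and an antisense partner may not be separable. Replicates 1, 2 and 3 held 12671700, 21747001 and 16915406 expected counts, of which 1.37%, 0.337% and 0.456% lay in features of no annotated gene, and those features were left out.

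Log2 values carry a pseudocount of 1, which lessens the fold change of low genes. Limits for 0 counts use 3 counts. The 2 tables were compared with limma 3.58.1 (R 4.3.3; an intercept fit on differences within libraries, trended empirical Bayes, Benjamini-Hochberg adjustment, genes averaging 1 TPM or more over both tables). Tested on simulated data for this comparison, 75 of 100 genes shifted by 0.5 on the log2 scale and 88 of 100 shifted by 1 were recovered, with 5 of 200 unchanged genes called. Levels, differences between genes, shares and lists have no test. Alternatives used edgeR 4.0.16 and DESeq2 1.42.0 only for scaling factors. Tables were handled with Python 3.11.15, pandas 2.3.3 and Biopython 1.88, and figures with matplotlib 3.10.9. The members and lists were chosen with earlier results of these data known. Genes named are the 4 members, detected Lilr and Pira genes, the 3 highest and the lowest gene of each list, the 3 nearest profiles and the neighbours in level, and exceptions are stated.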

Additional observations from a re-analysis of the deposited data

How the results depend on the processing

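Of 160 alternative values, 108 for levels, differences, shares and counts and 9 for introns stayed the same by a rule for each kind. Levels, differences between genes, shares and introns had to move by no more than the SD over libraries. For levels, differences between genes and shares, leaving out 1 replicate cannot move the mean by more than this SD. Those alternatives had to come out as the same, are part of the 108 and say nothing about stability. Differences between the tables had to keep direction and call. Counts of genes only had to stay within a fixed fold range of the main count. With TPM rescaled to protein-coding genes, means were 11009 for Lilrb4a, 7646 for Lilr4b and 1656 for Pirb, and 4410 genes were higher in the gene table. In the reads table Pirb averaged 434 TPM, Lilrb4a minus Lilr4b was 0.76, Pirb minus Lilra5 at least 12.70, the Lilrb4a share of the pair 62.8%, Lilrb4a-206 held 59.99%, Lilr4b-204 13.0%, and retained-intron transcripts 81.1% of Lilr4b and 88.5% of Pirb. As CPM per kb, Pirb was 443.9 with TMM factors and 444.1 with DESeq2 factors, and 444.2 and 444.4 with a mean count of at least 10. On expected counts, Lilrb4a minus Lilr4b was 0.18, Lilrb4a minus Pirb 2.04, Pirb minus Lilra5 at least 12.79, and the pair share 53.2%. With the highest summed TPM over one position, chosen after seeing the data, Lilrb4a minus Lilr4b was -0.066 and Lilrb4a minus Pirb 2.02. The posterior mean, also added later, gave 0.0333 TPM for Lilra5. With a mean of at least 10 TPM, 1076 genes were higher and 5119 lower in the gene table, and fewer genes were tested; the Lilrb4a difference of 0.14 then had adjusted p = 0.089 (limma). With no filter the differences were 0.14 for Lilrb4a (adjusted p = 0.54) and 0.37 for Lilr4b (adjusted p = 0.053, limma). Leaving out 1 replicate gave 635 to 1373 genes higher, 0.12 to 0.16 for Lilrb4a, 0.35 to 0.40 for Lilr4b and 0.20 to 0.22 for Pirb. In each library 7 activating receptors and 1 other chromosome 7 receptor reached 5 TPM. Except where stated, the cause was not tested.

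No paired analysis was possible because the samples form 1 group, so that replicate numbers pair no samples between groups, and the 2 tables were instead compared within each library. Pirb minus Lilra5 was not computed with another pseudocount, since it is a bound, and Lilra5 has no value under the filter on mean counts. Starting RNA and library cannot be told apart, and groups of 3 samples were not examined for outlying samples.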
